A study of Mus musculus with 24 samples.

Results

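The 33 genes described here belong to the NF-kappa-B pathway: 5 subunits of the transcription factor, 6 proteins of the I-kappa-B family, 2 tumour necrosis factor (TNF) receptors, 6 adaptors, 6 kinases, 4 brakes on the signal and 4 targets. They were chosen by name, as the rows of the read count table with these gene symbols, and all 33 were found among the 24421 genes of the table. The counts come from marrow T cells, purified by flow cytometric sorting, of CByB6F1 mice that had immune bone marrow failure (BMF), in which T cells attack the blood-forming cells. All 8 groups were female BMF mice aged 2 to 5 months, so no group of mice without BMF was compared. CD8 and CD4 T cells were taken from mice given low dose ruxolitinib together with cyclosporine (RUX+CSA), from mice given cyclosporine alone (CSA), from mice given ruxolitinib alone (RUX) and from untreated mice. Each group had 3 libraries, and each library was a pool of cells from 2 to 3 mice. Cyclosporine blocks calcineurin and so the activation of NFAT factors after the T cell receptor is engaged, and ruxolitinib inhibits JAK kinases downstream of cytokine receptors.

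NF-kappa-B factors are dimers of Rel proteins that I-kappa-B proteins hold in the cytoplasm. Engagement of the T cell receptor with CD28, or of a TNF receptor, activates the I-kappa-B kinase complex, which marks the inhibitor for destruction and frees the dimer to enter the nucleus. A slower, non-canonical branch, used by lymphotoxin and other TNF family receptors, stabilises the kinase encoded by Map3k14 and cuts the Nfkb2 product to a form that pairs with RelB. Several genes of the pathway, among them Nfkbia, Tnfaip3, Nfkb2, Relb and Birc3, are themselves targets of NF-kappa-B, so their messenger RNA levels follow the activity of the pathway as well as its capacity.

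The libraries held 16912085 to 34550183 read pairs assigned to genes, and 13240 to 16459 genes had at least 1. No NF-kappa-B gene was at 0 in any library, and all 33 passed the filter on low counts in both cell types, so the counting floor of 3 read pairs, worth 0.0868 to 0.177 CPM (a gene's read pairs scaled to a common library total), limited none of them. The floor, the Cd8a and Cd4 levels, the distances between pools and all summed levels use CPM without TMM factors. All other levels of single genes, and the FPKM values, were also scaled with TMM factors. The sorted cells matched their labels: Cd8a averaged 1027 CPM in CD8 libraries and 3.13 CPM in CD4 libraries, and Cd4 averaged 0.718 CPM in CD8 libraries and 1445 CPM in CD4 libraries. Within the CD8 groups, CSA pool 6 and RUX pool 7 stood apart from the other pools of their own groups. Their root mean square log2 CPM difference from those pools was 0.684 and 0.810 over all genes, against 0.418 to 0.629 for the other 10 CD8 libraries. Over the 33 genes alone it was 0.393 and 0.440, against 0.144 to 0.398 for the other 10, so that RUX pool 9 was as far out there as CSA pool 6. Results that rest on CSA pool 6 and RUX pool 7 are given with and without both. Among CD4 libraries this distance was 0.567 to 1.06, and untreated pool 14 was the farthest. RNA of other marrow cells was present and differed between groups. The summed level of 17 neutrophil genes ran from 4374 to 5733 CPM in CD8 RUX+CSA libraries and from 13.3 to 1569 CPM in CD8 untreated libraries, and from 8866 to 10694 CPM in CD4 RUX+CSA libraries and from 102 to 9559 CPM in CD4 untreated libraries. In bulk samples, fewer cells of a type and less RNA per cell cannot be told apart.

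NF-kappa-B factors bind the kappa-B site. The match upstream of Ltb, read on the strand opposite to the gene, is GGGACTTTCC, which is the classical form known from the immunoglobulin kappa enhancer. The 250 bases upstream of the transcription start, as given by RefSeq on mouse build GRCm38.p6, were found for 29 of the 33 genes; Nfkb1, Relb, Nfkbiz and Ikbkb were not matched. The degenerate kappa-B consensus, searched on both strands, was present upstream of 11 of these 29 genes (37.9%) and of 2225 of 27018 genes in the whole table of promoters (8.24%). The exact letters of the Ltb match, on either strand and themselves a form of the consensus, were searched as well. They were present upstream of 3 of the 29 (10.3%), namely Cyld, Ltb and Nfkb2, and of 0.159% of all genes. Ltb was bound to be counted, because the letters were taken from its own window. The share of 10.3% therefore includes a match fixed in advance, and it cannot show an excess over all genes. Shown here are the upstream windows with a match for the 5 genes that also had a lower level in CD8 than in CD4 cells under every setting tried, so that the letters can be set beside those results; Nfkb2 has several start sites, of which the outermost and the one with the classical form are given. Of the other genes with a lower level under every setting, Nfkbib, Traf1, Birc3, Ikbke and Lta had a window without a match. Nfkb1, Relb and Nfkbiz had no window. The windows shown were picked for their match, so they cannot show that a match goes with the lower level. Capitals mark the letters that match the consensus on either strand, and overlapping matches run together. A match is a description of the letters and not a shown binding site.
Nfkb2 (chr19:46304487-46304736, plus strand): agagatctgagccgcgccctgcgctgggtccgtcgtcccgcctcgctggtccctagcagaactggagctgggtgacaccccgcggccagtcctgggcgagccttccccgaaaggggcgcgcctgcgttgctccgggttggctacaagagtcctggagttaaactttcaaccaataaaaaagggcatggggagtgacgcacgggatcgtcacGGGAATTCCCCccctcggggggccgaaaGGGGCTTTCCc
Nfkb2 (chr19:46305680-46305929, plus strand): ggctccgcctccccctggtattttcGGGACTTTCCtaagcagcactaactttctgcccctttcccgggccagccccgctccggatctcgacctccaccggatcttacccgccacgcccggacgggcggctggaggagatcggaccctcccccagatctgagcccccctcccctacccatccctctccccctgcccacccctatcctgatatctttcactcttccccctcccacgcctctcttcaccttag
Nfkbia (chr12:55492648-55492897, minus strand): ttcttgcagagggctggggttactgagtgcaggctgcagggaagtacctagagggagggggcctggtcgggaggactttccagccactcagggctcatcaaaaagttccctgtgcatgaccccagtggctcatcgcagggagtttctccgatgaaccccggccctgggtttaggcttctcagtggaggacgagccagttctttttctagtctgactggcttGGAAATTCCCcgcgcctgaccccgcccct
Nfkbie (chr17:45555450-45555699, plus strand): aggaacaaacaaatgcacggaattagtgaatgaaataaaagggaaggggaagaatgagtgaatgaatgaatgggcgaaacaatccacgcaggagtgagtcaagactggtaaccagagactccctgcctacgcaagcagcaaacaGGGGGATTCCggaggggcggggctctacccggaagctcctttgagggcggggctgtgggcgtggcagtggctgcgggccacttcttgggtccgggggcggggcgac
Tnip1 (chr11:54962941-54963190, minus strand): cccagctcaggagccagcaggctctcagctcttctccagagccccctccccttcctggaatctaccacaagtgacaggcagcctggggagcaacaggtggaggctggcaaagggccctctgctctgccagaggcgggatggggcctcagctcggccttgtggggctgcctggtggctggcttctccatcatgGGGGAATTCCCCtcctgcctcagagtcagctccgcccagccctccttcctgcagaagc
Ltb (chr17:35194257-35194506, plus strand): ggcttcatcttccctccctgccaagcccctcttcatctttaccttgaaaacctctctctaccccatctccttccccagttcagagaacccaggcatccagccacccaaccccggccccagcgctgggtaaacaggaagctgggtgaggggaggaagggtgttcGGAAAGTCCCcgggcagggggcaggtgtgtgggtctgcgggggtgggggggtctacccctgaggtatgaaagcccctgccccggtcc
The matches start 39 and 11 bases before the first Nfkb2 start, 225 bases before the inner one, 29 bases before the Nfkbia start, 106 before Nfkbie, 58 before Tnip1 and 87 before Ltb. The other genes with a match were Cyld, Map3k7, Nfkbid, Rel, Tnfaip3 and Traf3.

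Compared per length, as CPM divided by exon length in kilobases (FPKM), the order of the genes was led by the same pair in both cell types. Ltb, which encodes the membrane anchor of lymphotoxin, had a median of 222 FPKM in CD8 cells and 589 FPKM in CD4 cells, and Nfkbia, which encodes the main feedback inhibitor, had 101 FPKM in CD8 cells and 328 FPKM in CD4 cells (12 libraries each). Next in CD8 cells came Tnfrsf1b, Traf1 and Rela with medians of 80.2, 65.1 and 60.4 FPKM. In CD4 cells the next were Traf1, Nfkb2 and Tnfrsf1b with 134, 74.2 and 73.6 FPKM. Among the subunits, Rela was the highest in CD8 cells, ahead of Nfkb2 at 29.5 FPKM, Nfkb1 at 25.9 FPKM, Relb at 15.1 FPKM and Rel at 6.97 FPKM. In CD4 cells Nfkb2 led, ahead of Rela at 65.1 FPKM, Nfkb1 at 52.3 FPKM, Relb at 36.8 FPKM and Rel at 10.1 FPKM. The lowest of all was Lta in CD8 cells, at 2.83 FPKM, and Traf6 in CD4 cells, at 8.71 FPKM. Of 32 pairs of neighbours in the order, 22 in CD8 cells and 26 in CD4 cells differed by less than the larger SD of the pair over libraries. The separated pairs stood along the order as well as at its ends, among them Ltb and Nfkbia in both cell types, Traf1 and Rela in CD8 cells and Nfkb1 and Nfkbiz in CD4 cells.

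The widest difference among these genes lay between the cell types. With all treatments weighted equally, 22 of the 33 genes were lower and 5 were higher in CD8 than in CD4 cells (edgeR quasi-likelihood test, Benjamini-Hochberg adjusted over 13476 genes, threshold 0.05). That is 81.8% of the genes called, beside 53.8% of all genes tested. Called lower were 66.7%, beside 26.4% of all genes, and called higher 15.2%, beside 27.4%. Their median log2 fold change, CD8 over CD4, was -0.44, against 0.0066 over all genes. In 12 of the 33, every CD8 library lay below every CD4 library, whereas 3.64% of all genes did so; none of the 33 lay wholly above, against 2.31% of all genes. The share of all read pairs that fell on the 33 genes was 0.297 to 0.407% in CD8 libraries and 0.462 to 0.619% in CD4 libraries.

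**Figure D1:**
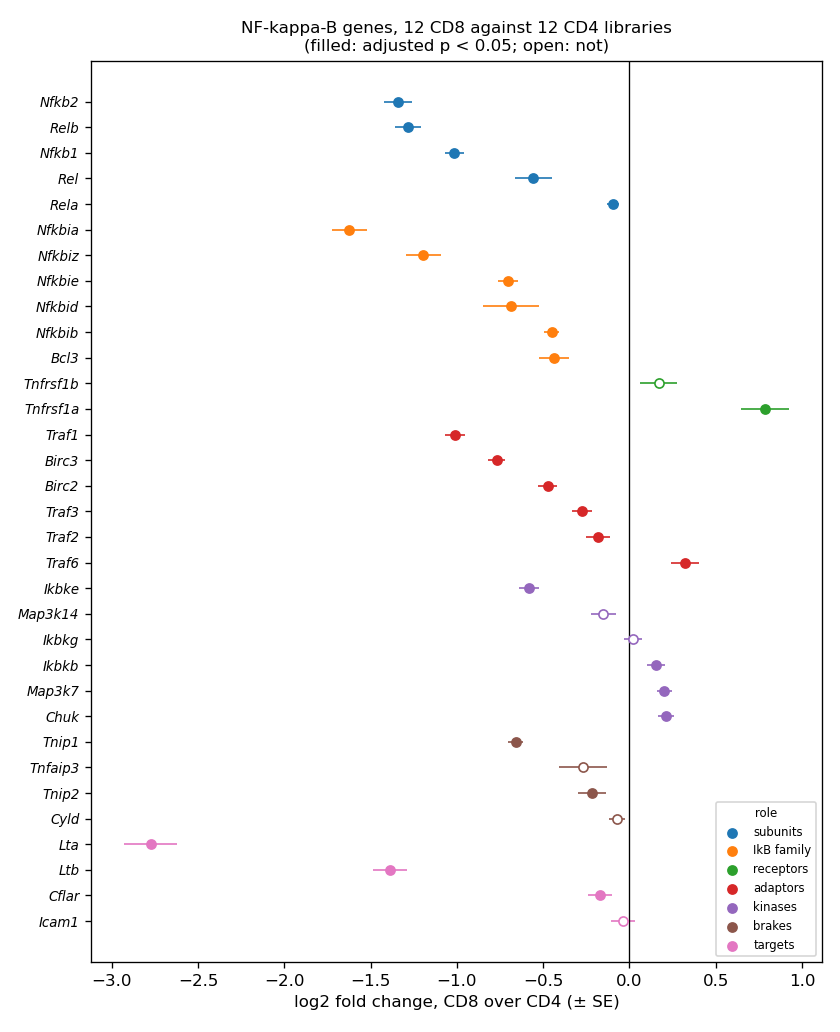
Log2 fold change of each NF-kappa-B gene, CD8 over CD4, with its SE, grouped by role. Filled points passed the adjusted threshold of 0.05 and open points did not; the subunits and the I-kappa-B family all lie left of 0, at -0.09 for Rela down to -1.62 for Nfkbia, while the filled points of 3 kinases, Traf6 and Tnfrsf1a lie right of it.

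All 5 subunits were lower in CD8 cells, and the size of the difference varied between them. Nfkb1, which encodes p105 and its product p50, ranged from 96.4 to 129 CPM (median 107) in CD8 libraries and from 177 to 281 CPM (median 215) in CD4 libraries, a log2 fold change of -1.01 (SE 0.05, adjusted p = 4.32e-12 by edgeR). Nfkb2, the p100 precursor of the non-canonical branch, ranged from 74.3 to 127 CPM (median 97.3) in CD8 libraries and from 185 to 312 CPM (median 244) in CD4 libraries (log2 fold change -1.34, SE 0.08, adjusted p = 2.45e-11). For both, no CD8 library reached the lowest CD4 library. Relb, the partner of processed p100, ranged from 24.6 to 41.4 CPM (median 33.3) in CD8 libraries and from 58.4 to 102 CPM (median 80.9) in CD4 libraries (-1.28, SE 0.08, adjusted p = 2.38e-11). The groups were again separate. Rel, the c-Rel subunit prominent in activated lymphocytes, ranged from 14.7 to 22.8 CPM (median 18.0) in CD8 libraries and from 16.8 to 41.2 CPM (median 26.2) in CD4 libraries, with overlap (-0.56, SE 0.10, adjusted p = 0.000135). Rela, the p65 subunit of the canonical dimer, was close in both, with 152 to 177 CPM (median 164) in CD8 libraries and 156 to 191 CPM (median 176) in CD4 libraries. Its log2 fold change of -0.09 (SE 0.04, adjusted p = 0.0319) was the smallest of the called genes, and it did not pass under every setting.

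All 6 genes of the I-kappa-B family were lower in CD8 cells as well. Nfkbia, whose product I-kappa-B alpha is destroyed and resynthesised at each round of signalling, ranged from 118 to 233 CPM (median 160) in CD8 libraries and from 361 to 654 CPM (median 518) in CD4 libraries. Its log2 fold change was -1.62 (SE 0.10, adjusted p = 9.26e-11 by edgeR), and the highest CD8 library was well under the lowest CD4 library. Nfkbiz and Nfkbie were also separate between the cell types, at log2 fold changes of -1.19 (SE 0.10) and -0.71 (SE 0.06). Nfkbiz, like Bcl3 and Nfkbid, encodes an atypical nuclear member that modulates NF-kappa-B on DNA, and Nfkbie encodes I-kappa-B epsilon. Nfkbid, Nfkbib and Bcl3 were lower by smaller or noisier amounts, with log2 fold changes of -0.69 (SE 0.16), -0.45 (SE 0.04) and -0.44 (SE 0.09), and their libraries overlapped. Nfkbib shares 310 of its 2125 exon bases (14.6%) with Gm6537 on the opposite strand, and reads were counted without strand, so reads of these overlapping genes cannot be told apart. Nfkbia shares 15 exon bases with Mir1198 and Nfkb2 shares 4 with Psd, and the other 30 genes share none.

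The receptors and the core kinases did not follow the subunits. Tnfrsf1a, the broadly expressed TNF receptor with a death domain, was higher in CD8 cells, with 31.4 to 81.1 CPM (mean 47.2 ± 17.2, SD, n = 12) in CD8 libraries and 20.5 to 43.1 CPM (mean 27.1 ± 6.50, SD, n = 12) in CD4 libraries, which overlapped (log2 fold change 0.78, SE 0.14, adjusted p = 9.13e-05 by edgeR). Tnfrsf1b, the TNF receptor favoured by T cells, was at 0.17 (SE 0.11, adjusted p = 0.19). Chuk and Ikbkb, the catalytic subunits of the I-kappa-B kinase complex, were higher in CD8 cells by 0.21 (SE 0.05) and 0.15 (SE 0.05), and Map3k7, which encodes the upstream kinase TAK1, by 0.20 (SE 0.04). Those 3 differences are small beside the ones of the subunits, and each had overlapping groups. The regulatory subunit Ikbkg was at 0.022 (SE 0.05, adjusted p = 0.746), and Map3k14, the NIK kinase that starts the non-canonical branch, at -0.15 (SE 0.07, adjusted p = 0.0813). Ikbke, a related kinase with a separate role in innate signalling, was the kinase that was lower, at -0.58 (SE 0.06, adjusted p = 5.99e-08), with no overlap.

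Among the adaptors, 5 of 6 were lower in CD8 cells. Traf1, an adaptor that is itself induced by NF-kappa-B, ranged from 136 to 177 CPM (median 151) in CD8 libraries and from 229 to 354 CPM (median 311) in CD4 libraries (log2 fold change -1.01, SE 0.06, adjusted p = 7.44e-12 by edgeR). Birc3, which encodes the ubiquitin ligase cIAP2, ranged from 58.0 to 70.0 CPM (median 64.1) in CD8 libraries and from 88.7 to 132 CPM (median 109) in CD4 libraries (-0.77, SE 0.05, adjusted p = 5.35e-11). Neither had a CD8 library at the level of a CD4 library. Birc2, which encodes the related ligase cIAP1, Traf3, which holds NIK at a low level, and Traf2 were lower, at log2 fold changes of -0.47, -0.27 and -0.18. Traf6, the ubiquitin ligase of Toll-like and IL-1 family receptor signalling, was higher in CD8 cells by 0.32 (SE 0.08, adjusted p = 0.00207). Among the brakes, Tnip1, whose product binds the A20 protein, ranged from 74.5 to 84.2 CPM (median 80.0) in CD8 libraries and from 104 to 152 CPM (median 123) in CD4 libraries, again with separate groups (-0.66, SE 0.04, adjusted p = 9.26e-11). Tnfaip3, which encodes A20 itself, did not pass. It ranged from 182 to 343 CPM (median 209) in CD8 libraries and from 184 to 400 CPM (median 277) in CD4 libraries (-0.27, SE 0.14, adjusted p = 0.113). Tnip2, which encodes a relative of the Tnip1 product, was lower, at -0.22 (SE 0.08, adjusted p = 0.0266) and the deubiquitinase gene Cyld was at -0.07 (SE 0.05, adjusted p = 0.201).

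The 2 lymphotoxin genes, which are neighbours on chromosome 17 (Ltb at chr17:35194507-35196305 and Lta at chr17:35203165-35205351 on mm10), were far lower in CD8 cells. Lta, which encodes lymphotoxin alpha, ranged from 1.85 to 6.08 CPM (median 3.91) in CD8 libraries and from 12.9 to 39.8 CPM (median 24.5) in CD4 libraries. Its log2 fold change of -2.78 (SE 0.15, adjusted p = 5.99e-12 by edgeR) was the largest of the 33. Ltb ranged from 177 to 373 CPM (median 243) in CD8 libraries and from 498 to 816 CPM (median 645) in CD4 libraries (-1.39, SE 0.10, adjusted p = 5.02e-10). No library of either cell type crossed into the range of the other for these 2 genes. Cflar, which encodes the caspase 8 inhibitor cFLIP, passed only just, at -0.17 (SE 0.07, adjusted p = 0.0499). Icam1, the adhesion molecule induced by NF-kappa-B in many cells, was at -0.04 (SE 0.07, adjusted p = 0.685).

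**Figure D2:**
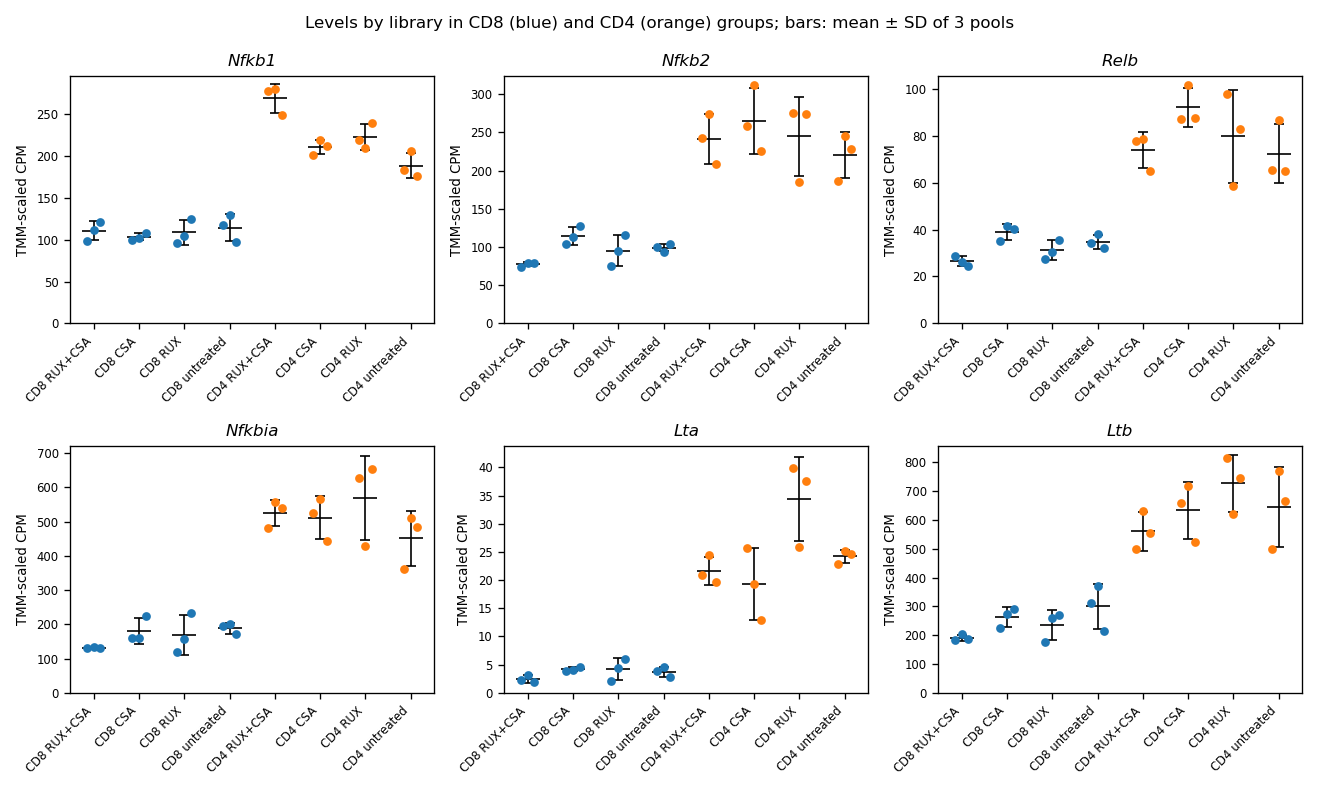
TMM-scaled CPM of Nfkb1, Nfkb2, Relb, Nfkbia, Lta and Ltb in each library of the 8 groups, CD8 groups in blue on the left and CD4 groups in orange on the right. Points are pools and bars are the mean and SD of 3 pools; in every panel the highest CD8 point is under the lowest CD4 point, as for Lta with 6.08 CPM against 12.9 CPM.

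The cell type difference was also tested within each treatment, as a contrast in the fit of all 24 libraries. Among RUX+CSA libraries, 18 of the 33 genes were lower and 2 higher in CD8 cells (20 called, with 27.8% of all genes called). Among CSA libraries 15 were lower and 1 higher (16, with 26.3%). Among RUX libraries 15 were lower and 3 higher (18, with 17.9%), and among untreated libraries 13 were lower and 1 higher (14, with 17.2%). Nfkbia had log2 fold changes of -1.99, -1.49, -1.75 and -1.26 in the RUX+CSA, CSA, RUX and untreated libraries. Nfkb2 had -1.64, -1.21, -1.36 and -1.15 in the same order of groups, and Nfkb1 had -1.28, -1.03, -1.03 and -0.72. Whether these differences between cell types changed with RUX+CSA was tested as a difference of effects, given last. The call of 13 genes held in each of 11 alternative settings, these contrasts within a treatment among them, and with each of the 24 libraries left out in turn. These were Nfkb1, Nfkb2, Relb, Nfkbia, Nfkbib, Nfkbie, Nfkbiz, Traf1, Birc3, Ikbke, Tnip1, Lta and Ltb. How many of all genes kept their call in this way was not computed, so the 13 have no background beside them.

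Other genes around the pathway gave a mixed picture in the same comparison. Of 12 TNF family receptors and costimulators that signal to NF-kappa-B, 10 were lower and 2 higher in CD8 cells, with a median log2 fold change of -1.62; Icos, Tnfrsf18 (GITR) and Tnfrsf25 (DR3) averaged 119, 113 and 14.3 CPM in CD8 cells and 365, 344 and 68.9 CPM in CD4 cells. Of 27 other NF-kappa-B targets, 18 were lower and 6 higher (median -0.53); the interleukin 2 receptor gene Il2ra was at -2.56 (SE 0.19) and Sdc4 at -3.75 (SE 0.25), while Myc was higher, at 1.34 (SE 0.06, each called by edgeR). The genes between the receptors and the kinases did not lean the same way. Of 12 antigen receptor and TNF receptor adaptors, 7 were higher and 2 lower (median 0.18), with Bcl10 at -0.37 (SE 0.04) and Tab2 at -0.50 (SE 0.07) lower; of those higher, picked after their values were seen, Pdpk1 was at 0.26 (SE 0.05) and Tradd at 0.22 (SE 0.05). Of 11 linear ubiquitin and deubiquitinase genes, 4 were higher and 3 lower (median 0.049), with Otulin at 0.50 (SE 0.03), Rnf11 at -0.43 (SE 0.04) and Tax1bp1 at -0.18 (SE 0.04). Transcripts that respond quickly to cell handling were mostly lower too: of 15 immediate early genes, 10 were lower and 1 higher in CD8 cells (median -0.59), with Junb at -0.96, Btg2 at -0.57 and Dusp1 at -1.82. So were markers of other marrow cells, with 13 of 17 neutrophil and 13 of 15 monocyte and macrophage genes lower in CD8 libraries (medians -1.70 and -1.76). With the mean level of other-cell markers as a covariate, 20 of the 33 genes were still lower and 4 higher, beside 2928 of all genes lower and 3130 higher. The part of the handling genes in the result was not tested.

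The combination of ruxolitinib and cyclosporine was 1 of 3 treatments set against none. In CD8 cells, 5 of the 33 genes were lower and none higher under RUX+CSA than in untreated mice (edgeR, adjusted over 12684 genes; 11 of the 33 had an unadjusted p under 0.05, and DESeq2 called 6 lower and 1 higher, beside 2794 of all genes). That is 15.2% of the genes, beside 15.7% of all genes called in either direction with 7.94% called higher and 7.73% lower, so the number called was near the background of this comparison. The called genes were Birc2, Nfkbie, Icam1, Relb and Ltb. The shares of all genes with an unadjusted p under 0.05, or with a log2 fold change above or below 0, were not computed. Counts of the 33 by unadjusted p or by sign, here and below, therefore have no background beside them. The median log2 fold change over the 33 was -0.15, against -0.024 over all genes, and 25 of the 33 lay below 0. Without overlap between the groups, 12 of the 33 lay lower and 2 higher, where 21.7% of all genes lay lower and 21.7% higher.

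Birc2, the cIAP1 ligase, had 65.1, 63.5 and 70.2 CPM in RUX+CSA pools and 84.3, 95.8 and 89.0 CPM in untreated pools of CD8 cells, a log2 fold change of -0.45 (SE 0.10, adjusted p = 0.0173 by edgeR). Nfkbie, I-kappa-B epsilon, had 45.9, 48.7 and 46.2 CPM in RUX+CSA pools and 59.7, 62.0 and 59.5 CPM in untreated pools (-0.37, SE 0.09, adjusted p = 0.0227). In both, the 3 RUX+CSA pools lay close together and below all 3 untreated pools. Icam1 had 119.0, 118.5 and 119.8 CPM in RUX+CSA pools and 157.0, 166.0 and 141.4 CPM in untreated pools (-0.39, SE 0.11, adjusted p = 0.032). Relb, the non-canonical subunit, had 28.7, 26.1 and 24.6 CPM in RUX+CSA pools and 34.4, 38.0 and 32.2 CPM in untreated pools (-0.41, SE 0.12, adjusted p = 0.0372). These groups did not overlap either. Ltb, which carries the classical kappa-B form shown above, had 182.8, 203.6 and 188.5 CPM in RUX+CSA pools and 312.4, 372.6 and 215.4 CPM in untreated pools (-0.66, SE 0.20, adjusted p = 0.0448). Its untreated pools were spread widely, and the lowest of them was near the highest RUX+CSA pool. Of the other genes named here, Nfkbie had a kappa-B match upstream, Birc2 and Icam1 had none, and Relb had no window.

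**Figure D3:**
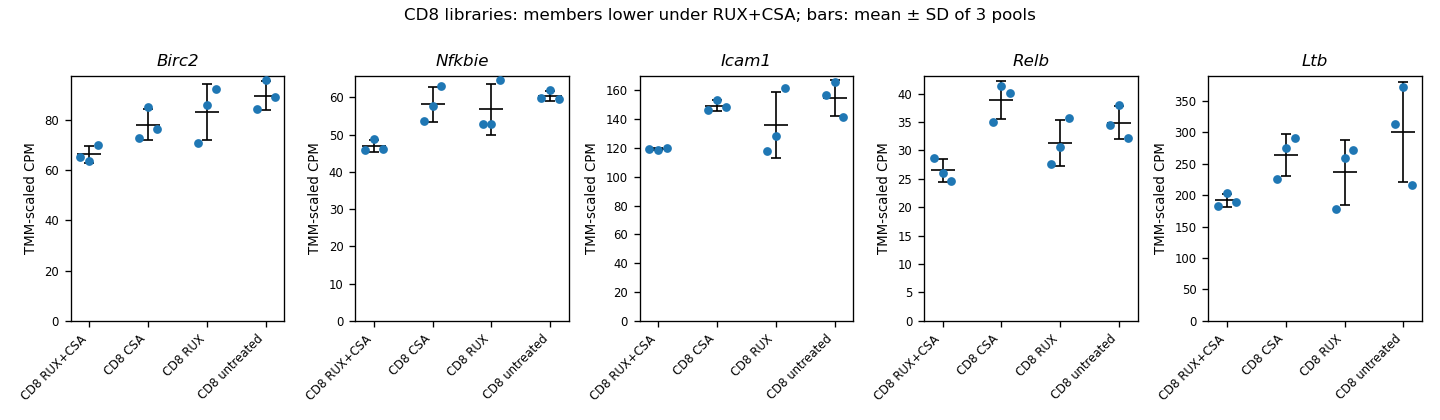
TMM-scaled CPM of Birc2, Nfkbie, Icam1, Relb and Ltb in each CD8 library by treatment, with the mean and SD of 3 pools. The RUX+CSA points lie below the untreated points in each panel, while the CSA and RUX points lie between or across these groups in most panels.

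The other genes of main interest did not pass in CD8 cells. Nfkb2 had 74.3, 78.9 and 79.5 CPM in RUX+CSA pools and 99.9, 93.7 and 103.7 CPM in untreated pools (log2 fold change -0.36, SE 0.13, adjusted p = 0.0703 by edgeR), and Nfkbia had 131.2, 134.8 and 130.0 CPM in RUX+CSA pools and 196.0, 200.3 and 170.8 CPM in untreated pools (-0.53, SE 0.21, adjusted p = 0.101). Neither gene had overlapping groups. Nfkb1 had 99.1, 112.2 and 121.3 CPM in RUX+CSA pools and 117.7, 129.4 and 96.9 CPM in untreated pools (-0.06, SE 0.12, adjusted p = 0.765). Rel was at 0.06 (SE 0.19, adjusted p = 0.848), Rela at 0.12 (SE 0.07, adjusted p = 0.216) and Tnfaip3 at 0.06 (SE 0.25, adjusted p = 0.888). Tnfrsf1a had the largest log2 fold change, at -0.90, with an SE of 0.32 and an adjusted p of 0.0812. Nfkbib, the gene with the smallest p in the upward direction, was at 0.25 (SE 0.08, adjusted p = 0.0666). None of the 6 kinases passed, and their log2 fold changes ran from -0.24 to 0.043. None of the 4 brakes passed, with values from -0.18 to 0.06.

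These calls were not steady. Leaving out 1 pool at a time from the 2 groups gave between 0 and 5 called genes, with none left without untreated pool 2 or RUX+CSA pool 10 or 11, 2 without untreated pool 1 or RUX+CSA pool 12, and 5 without untreated pool 3. All genes called dropped as well, to between 426 and 1807, against 1988 with every pool. Without CSA pool 6 and RUX pool 7, which enter the fit through its estimate of spread, 8 genes were lower and 1 higher: Birc2, Nfkbie, Icam1, Relb and Ltb as before, with Nfkb2 (adjusted p = 0.0104), Nfkbia (adjusted p = 0.01) and Tnfrsf1a (-0.90, adjusted p = 0.00235) lower and Nfkbib higher (adjusted p = 0.0303, all by edgeR). In that fit 30.4% of all genes were called. Markers of other cells moved with the treatment. In CD8 cells, 5 of 17 neutrophil, 7 of 9 erythroid and 5 of 10 B cell genes tested were higher under RUX+CSA, with medians of 2.95, 4.42 and 2.07, and 2 of 14 monocyte and macrophage genes were higher and 3 lower. With the mean level of other-cell markers as a covariate, none of the 33 genes passed, and 0 of all genes were called, against 1988 without it. The log2 fold changes in that fit were -0.24 (SE 0.20) for Birc2, -0.28 (SE 0.20) for Nfkbie and -0.09 (SE 0.21) for Icam1. For Relb the value was -0.11 (SE 0.23) and for Ltb 0.29 (SE 0.29), with adjusted p between 0.739 and 0.914 by edgeR for these 5 genes. Each SE was larger than without the covariate. Because the markers differed between the same groups, this fit cannot tell the treatment and the markers apart. The part of these markers beyond this fit was not tested. The summed B cell markers were low throughout, at 31.2 to 75.1 CPM in RUX+CSA and 7.70 to 17.2 CPM in untreated CD8 libraries.

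Genes elsewhere in the pathway gave few calls in either direction in CD8 cells, while immediate early genes rose. Of 15 handling and immediate early genes, 8 rose under RUX+CSA and none fell (median log2 fold change 0.93, edgeR); Ier2 was at 0.82 (SE 0.15), Zfp36 at 0.59 (SE 0.13) and Egr1 at 1.59 (SE 0.36), the last averaging 189 CPM in RUX+CSA and 62.5 CPM in untreated libraries. Of 27 other NF-kappa-B targets, 2 rose and 1 fell: Ier3 at 0.69 (SE 0.17), Junb at 0.67 (SE 0.17) and Vcam1 at -1.32 (SE 0.33). Those 2 risers are also immediate early genes, and Vcam1 is also among the macrophage markers. Of 12 adaptors, 2 rose and 1 fell, namely Ripk1 at 0.31 (SE 0.09), Bcl10 at 0.28 (SE 0.08) and Tab2 at -0.67 (SE 0.13). Of 11 ubiquitin genes, Otulin rose by 0.35 (SE 0.07) and Otud7b fell by 0.40 (SE 0.08). Of 12 TNF family receptors and costimulators, 11 were tested and Ltbr alone was called, at 2.34 (SE 0.61) and 1.64 CPM in RUX+CSA against 0.313 CPM in untreated libraries; it encodes the lymphotoxin beta receptor, which myeloid and stromal cells carry.

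In CD8 cells none of the 33 genes passed the adjusted edgeR test under either drug alone, and no gene of any kind did (0% of 12684 genes in each). In CSA against untreated libraries 1 of the 33 had an unadjusted p under 0.05, and in RUX against untreated none did. DESeq2 called none of the 33 in either, beside 72 of all genes under CSA and 83 under RUX. The smallest p under CSA belonged to Nfkbib, with 62.6, 64.6 and 70.4 CPM in CSA pools and 57.2, 50.2 and 58.8 CPM in untreated pools (log2 fold change 0.25, SE 0.08, adjusted p = 0.448 by edgeR), followed by Bcl3 (0.40, SE 0.19, adjusted p = 0.527). Nfkbib did not overlap between the groups. Under RUX they belonged to Icam1 (-0.19, SE 0.11, adjusted p = 0.874) and Ltb (-0.35, SE 0.20, adjusted p = 0.887). Leaving out CSA pool 6 and RUX pool 7 gave 1 called gene of the 33 under CSA, beside 4.81% of all genes. Among values picked after they were seen, both of these pools held genes far from the level in the other pools of their group, for example Nfkbia at 225.3 CPM in CSA pool 6 and at 159.2 and 160.2 CPM in the other CSA pools, or Traf6 at 101.8 CPM in RUX pool 7 and at 66.1 and 61.3 CPM in the other RUX pools.

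Set against either single drug, the combination gave no called gene among the 33 in CD8 cells. Against CSA, 10 of all genes were called (0.0788%), 8 of the 33 had an unadjusted p under 0.05 and DESeq2 called 2, beside 266 of all genes. The smallest p-values were those of Relb, with 28.7, 26.1 and 24.6 CPM in RUX+CSA pools and 35.1, 41.4 and 40.2 CPM in CSA pools (log2 fold change -0.56, SE 0.12, adjusted p = 0.107 by edgeR), and of Nfkb2, with 74.3, 78.9 and 79.5 CPM in RUX+CSA pools and 104.0, 112.9 and 126.8 CPM in CSA pools (-0.57, SE 0.13, adjusted p = 0.122). Both lay lower in every RUX+CSA pool than in any CSA pool, as did 8 of the 33 genes in all, where 10.9% of all genes did so. Against RUX, no gene of any kind was called by edgeR (0%), and 5 of the 33 had an unadjusted p under 0.05. DESeq2 called none of the 33, beside 481 of all genes. Birc2 (-0.33, SE 0.10, adjusted p = 0.157) and Nfkbie (-0.28, SE 0.09, adjusted p = 0.176) had the smallest p. Without CSA pool 6 and RUX pool 7, the combination gave 1 called gene of the 33 against CSA, beside 0.859% of all genes, and 6 against RUX, beside 11.6%. Leaving out RUX pool 7 alone moved all genes called against RUX to 255, against 0 with it. Taking CSA-containing against CSA-free CD8 libraries, 6 against 6, none of the 33 passed (299 genes, or 2.36% of all, did; 5 of the 33 had an unadjusted p under 0.05 and DESeq2 called 1, beside 1290 of all genes); Birc2 was at -0.27 (SE 0.07, adjusted p = 0.0662) and Nfkbib at 0.18 (SE 0.06, adjusted p = 0.0982). With 1 library left out, all genes called ran from 0 to 1403. Without the 2 pools, 7 of the 33 were called, beside 21.9% of all genes.

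In CD4 cells, 1 of the 33 genes was called under RUX+CSA, and it rose. Nfkb1 had 277.8, 280.5 and 249.5 CPM in RUX+CSA pools and 183.9, 206.0 and 176.5 CPM in untreated pools, a log2 fold change of 0.51 (SE 0.09, adjusted p = 0.0143 by edgeR over 13175 genes). All 3 RUX+CSA pools lay above all 3 untreated pools. Of all genes tested, 1.77% were called in this comparison (1.02% higher and 0.744% lower), and 1 of 33 (3.03%) is near that share, while 7 of the 33 had an unadjusted p under 0.05. CSA alone gave 201.8, 219.3 and 211.9 CPM and RUX alone 218.9, 209.5 and 240.3 CPM of Nfkb1 in CD4 cells, both between the RUX+CSA and untreated means. Without untreated pool 14 the fold change was 0.58 and the adjusted p = 0.00958. The call was lost without RUX+CSA pool 22 (adjusted p = 0.0723) or pool 23, in a fit of the 2 groups alone (adjusted p = 0.0544), and with the other-cell covariate, where the fold change was 0.63 and the adjusted p = 0.0539. All genes called were 89 in the fit of the 2 groups alone and 50 with the covariate. DESeq2 and the fit of all 24 libraries each called 3 of the 33, while all genes called were 947 and 669, against 233 in the fit reported here. With 1 pool left out, that count of 233 ran from 58 to 293.

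**Figure D4:**
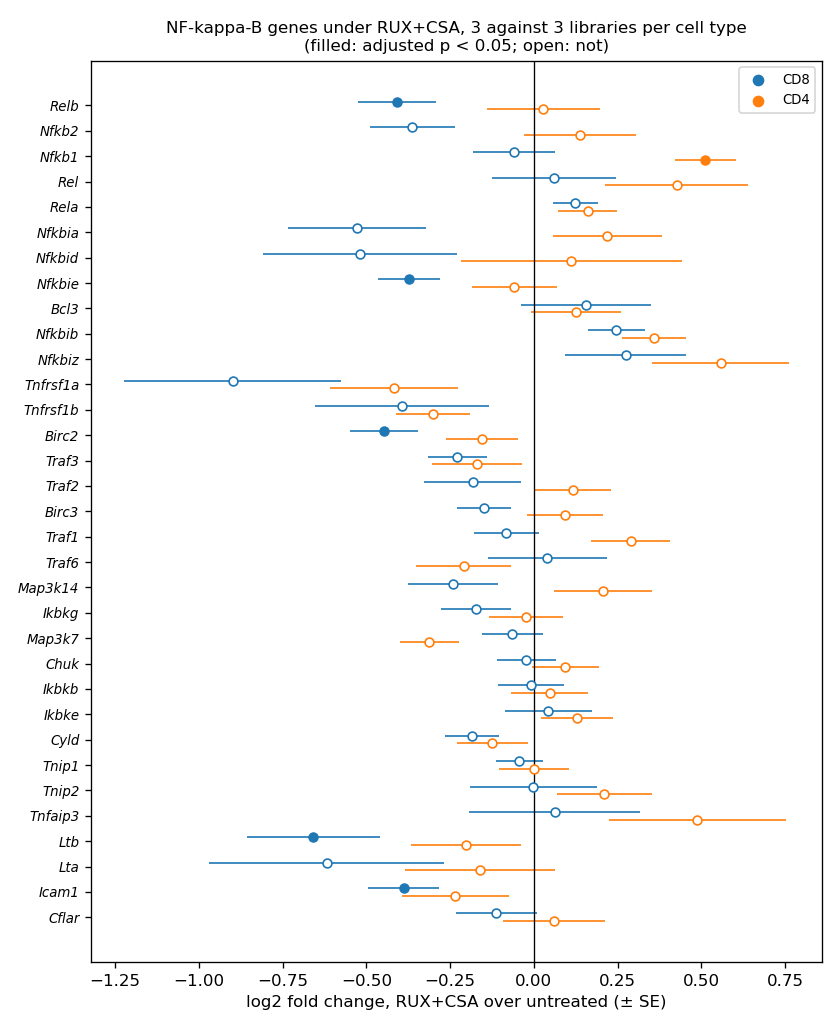
Log2 fold change of each NF-kappa-B gene under RUX+CSA over untreated, with its SE, in CD8 cells (blue, above) and CD4 cells (orange, below), grouped by role. Filled points passed the adjusted threshold of 0.05: Birc2, Nfkbie, Icam1, Relb and Ltb in CD8 cells and Nfkb1 in CD4 cells, with Tnfrsf1a the farthest from 0 in CD8 cells but open at -0.90.

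The other subunits and the feedback genes did not pass in CD4 cells. Relb had 78.0, 78.6 and 65.0 CPM in RUX+CSA pools and 65.5, 86.9 and 65.1 CPM in untreated pools (log2 fold change 0.028, SE 0.17, adjusted p = 0.958 by edgeR), and Nfkb2 was at 0.14 (SE 0.17, adjusted p = 0.737). Rel was at 0.43 (SE 0.21, adjusted p = 0.327) and Rela at 0.16 (SE 0.09, adjusted p = 0.383). Nfkbia had 482.7, 556.0 and 539.3 CPM in RUX+CSA pools and 360.7, 511.0 and 483.9 CPM in untreated pools, which overlapped (0.22, SE 0.16, adjusted p = 0.54). Tnfaip3 was at 0.49 (SE 0.27, adjusted p = 0.39) and Ltb at -0.20 (SE 0.16, adjusted p = 0.579). After Nfkb1, the smallest p belonged to Nfkbib (0.36, SE 0.10, adjusted p = 0.0695). The median over the 33 genes was 0.092, against -0.0069 over all genes, with 20 of 33 above 0; 4 lay higher and 5 lower without overlap, where 10.9% of all genes lay higher and 10.9% lower. Immediate early genes rose here too, 4 of 15 with a median of 1.42, among them Egr1 at 1.42 (SE 0.18), Ier2 at 0.78 (SE 0.15) and Jund at 0.68 (SE 0.13); their sum was 4262 to 5342 CPM in RUX+CSA and 1876 to 2657 CPM in untreated CD4 libraries. Of the 27 other targets, Ccl5 rose by 0.86 (SE 0.13) and Vcam1 fell by 3.23 (SE 0.57), and none of the adaptors, ubiquitin genes or TNF family receptors passed. Among markers of other cells, 4 of 10 B cell genes and 1 of 9 erythroid genes were higher, none of 17 neutrophil genes was called, and 5 of 15 monocyte and macrophage genes were lower.

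Cyclosporine-containing against cyclosporine-free was the CD4 comparison with the most called genes, 943 of 13175, or 456 to 1209 with 1 library left out. With 6 libraries against 6, 2 of the 33 passed (6.06%), near the 7.16% of all genes called (3.76% higher and 3.39% lower). Tnfrsf1b fell: its level was 338.5 to 352.2 CPM in the 3 RUX+CSA pools and 278.0 to 361.0 CPM in the 3 CSA pools, against 362.3 to 450.2 CPM in the 3 RUX pools and 383.6 to 458.0 CPM in the 3 untreated pools (log2 fold change -0.35, SE 0.08, adjusted p = 0.0188 by edgeR). Nfkbib rose, with 88.5 to 102.7 CPM in RUX+CSA pools and 87.8 to 98.5 CPM in CSA pools, against 76.6 to 84.3 CPM in RUX pools and 68.6 to 76.0 CPM in untreated pools (0.29, SE 0.07, adjusted p = 0.0208). For both genes the 6 CSA-containing pools were separate from the 6 CSA-free pools, as for 2.21% of all genes upward and 1.63% downward. Both calls were lost with the other-cell covariate, at log2 fold changes of -0.37 and 0.27, while all genes called fell from 943 to 294. Tnfrsf1b also lost its call without RUX pool 19 (adjusted p = 0.051), and Nfkbib without CSA pool 17, RUX pool 20 or RUX+CSA pool 23. Leaving out 1 library at a time gave 1 to 4 called genes, and the reads of Nfkbib cannot be told apart from those of Gm6537 where their exons overlap.

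**Figure D5:**
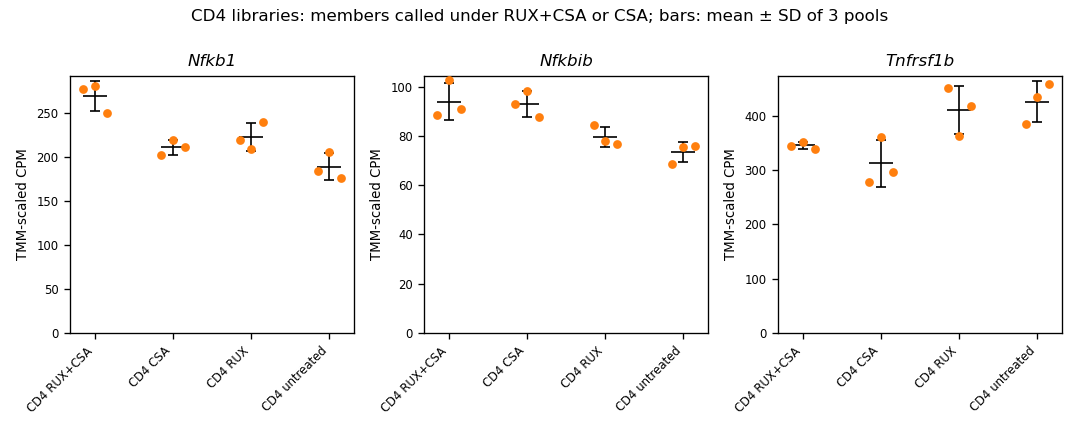
TMM-scaled CPM of Nfkb1, Nfkbib and Tnfrsf1b in each CD4 library by treatment, with the mean and SD of 3 pools. Nfkb1 is highest under RUX+CSA, at 249.5 to 280.5 CPM, while Nfkbib is higher and Tnfrsf1b lower in both groups that received cyclosporine.

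Most genes of the lists next to the pathway did not pass in the same comparison. Tnfrsf9, which encodes the costimulator 4-1BB, fell to 97.0 CPM in CSA-containing libraries, against 146 CPM in CSA-free libraries (log2 fold change -0.60, SE 0.11), while Tnfrsf25 (0.58, SE 0.13) and Cd28 (0.32, SE 0.07) rose, and the other 9 of the 12 TNF family receptors and costimulators did not pass. Of the 27 other NF-kappa-B targets 3 rose and 1 fell, among them the chemokine genes Ccl5 (0.96, SE 0.09) and Ccl4 (1.06, SE 0.22) and the kinase gene Pim1 (0.58, SE 0.14). Of the 11 ubiquitin genes Rnf11 rose by 0.28 (SE 0.07), and none of the 12 adaptors passed. Of the markers of other cells, 3 of 9 erythroid, 2 of 10 B cell and 1 of 17 neutrophil genes were higher and 1 of 15 monocyte and macrophage genes was lower. Beside them 5 of 15 immediate early genes rose (median 0.76), with Egr1 at 1.15, Btg2 at 0.46 and Ier2 at 0.52 (each called by edgeR). In CD8 cells the same comparison called 1 ubiquitin gene, Otulin (0.23, SE 0.05), and 1 immediate early gene, Ier2 (0.46, SE 0.11), in these lists.

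The remaining CD4 comparisons called none of the 33 genes by edgeR. In CSA against untreated libraries, where 1.48% of all genes were called, Tnfrsf1b was at -0.45 (SE 0.11, adjusted p = 0.0646) and Nfkbib at 0.34 (SE 0.10, adjusted p = 0.0976), 4 of the 33 had an unadjusted p under 0.05 and DESeq2 called 2, beside 703 of all genes. In the lists around the pathway Tnfrsf9 was lower at -0.82 (SE 0.15), and Ccl5 at 1.38 (SE 0.13) and Egr1 at 0.98 (SE 0.18) were higher. In RUX against untreated libraries no gene of any kind was called by edgeR (0%), and 5 of the 33 had an unadjusted p under 0.05. DESeq2 called none of the 33, beside 18 of all genes. Map3k7 was at -0.27 (SE 0.09) and Nfkb1 at 0.24 (SE 0.09), each with an adjusted p of 1. Map3k7 had 89.1, 92.8 and 84.2 CPM in RUX pools and 115.6, 105.0 and 100.9 CPM in untreated pools, which did not overlap. In RUX+CSA against CSA libraries (0.281% of all genes called) Nfkb1 was at 0.35 (SE 0.09, adjusted p = 0.164) and Tnfrsf1a at -0.58 (SE 0.19, adjusted p = 0.301), 5 of the 33 had an unadjusted p under 0.05 and DESeq2 called 1, beside 231 of all genes. In RUX+CSA against RUX libraries (0.782% called) Birc2 was at -0.36 (SE 0.11, adjusted p = 0.136) and Nfkb1 at 0.27 (SE 0.09, adjusted p = 0.178 by edgeR). There 9 of the 33 had an unadjusted p under 0.05, and Egr1 was higher, at 1.31 (SE 0.18). DESeq2 called none of the 33, beside 578 of all genes. These comparisons share libraries with each other and with those above.

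Whether RUX+CSA acted on these genes differently in CD8 and CD4 cells was tested as the difference of the 2 effects, in a fit of all 24 libraries. None of the 33 passed, beside 3 of all 13476 genes (0.0223%), while 6 of the 33 had an unadjusted p under 0.05 and DESeq2 called 1, beside 215 of all genes. Nfkb1 had the smallest p, with a difference of -0.56 (SE 0.15, adjusted p = 0.139 by edgeR), the CD8 effect being close to 0 and the CD4 effect positive. Nfkbia came next, at -0.74 (SE 0.28, adjusted p = 0.269), with -0.53 in CD8 cells and 0.22 in CD4 cells. For 30 of the 33 genes the CD8 effect lay below the CD4 effect, with a median difference of -0.23, against 0.030 over all genes. The 33 genes were measured in the same pools, so they are not independent, and the count of 30 has no background beside it. With none passing this test, the separate calls in the 2 cell types do not show that the genes responded differently.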

How the data were processed

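RNA of sorted CD8 and CD4 T cells was sequenced in 24 libraries, 3 pools in each of 8 groups. The authors deposited whole-number read pair counts per gene, made with STAR and featureCounts 2.0.3 on mouse build mm10, per the submitters' processing notes and the file header; the version of STAR is not given in the sources used here. Depth was 16912085 to 34550183 assigned read pairs per library. From these counts, edgeR 4.0.16 (R 4.3.3) with TMM scaling, its filter on low counts and robust quasi-likelihood tests was fitted to the 12 libraries of a cell type, or to all 24 for comparisons between cell types, with Benjamini-Hochberg adjustment over all genes tested and a threshold of 0.05. The SE of a log2 fold change was derived from the F statistic. p-values rest on the spread between pools, and counting floors cover counting error only.

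The 33 genes and all lists were chosen with earlier results of these data known. The text names genes past the threshold, at most 8 in a treatment comparison, or else the 2 with the smallest p; Nfkb1, Nfkb2, Rel, Rela, Relb, Nfkbia, Tnfaip3 and Ltb are given under RUX+CSA and between cell types whether or not they passed. Genes named beyond the 33 are at most 3 of each list, those past the threshold with the smallest p, except Pdpk1 and Tradd, which were picked after their values were seen. One gene that this rule would name is not reported here. The 5 lists around the pathway hold adaptors, ubiquitin genes, TNF family receptors and costimulators, other targets, and handling and immediate early genes. The 9 marker lists cover neutrophil, erythroid, B, monocyte and macrophage, NK, stromal and endothelial cells, T cells and the CD8 and CD4 lineages; 57 genes of other cells made the covariate. In CD8 RUX+CSA against untreated libraries, 1 of 5 NK genes, 0 of 3 stromal, 3 of 10 T cell, 1 of 2 CD8 and 0 of 3 CD4 genes tested were higher and none lower. DESeq2 1.42.0 and limma voom 3.58.1 were alternatives. Scripts were tested on simulated data. Sequences are RefSeq's, from GRCm38.p6.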

Additional observations from a re-analysis of the deposited data

How the results depend on the processing

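Over the alternatives tried, single-gene values kept direction and side of the threshold in 1447 cases, no longer passed in 118, newly passed in 24 and changed sign in 16, and all 66 levels moved by less than 1 SD. The calls between CD8 and CD4 cells were the steadiest, with 23 to 29 genes when 1 library was left out. All genes called then were 6856 to 7395, against 7251, so the whole comparison was steady. The count was 14 within untreated and 16 within CSA libraries, beside 2324 and 3545 of all genes. Those contrasts compared fewer libraries, in the fit of all 24. The tests within RUX+CSA, CSA or RUX libraries and those without CD8 CSA pool 6 and CD8 RUX pool 7 were chosen after seeing the data. In CD8 RUX+CSA against untreated libraries the count was 3 with no filter on low counts, 0 with the other-cell covariate, 9 with the 2 groups alone, 9 without the 2 pools that stood apart, and 0 to 5 with 1 pool left out. All genes called were 1598 with no filter, 0 with the covariate, 2781 with the 2 groups alone and 3893 without the 2 pools, against 1988. DESeq2 gave 2 for CD8 RUX+CSA against CSA and 1 for CD8 CSA-containing libraries, and omission of the 2 pools gave 1 and 7, with 1 for CD8 CSA against untreated and 6 for CD8 RUX+CSA against RUX. In CD4 cells, CSA against untreated gave 1 with no filter, 2 by DESeq2 and 1 with all 24 libraries fitted, where all genes called were 240, 703 and 196, against 195. CD4 RUX+CSA against untreated gave 0 with the covariate, 3 by DESeq2, 3 with all 24 libraries and 0 with the 2 groups alone. All genes called there were 50, 947, 669 and 89 in the same order, against 233. CD4 CSA-containing libraries gave 0 with the covariate, 4 by DESeq2 and 1 with all 24 libraries, where all genes called were 294, 1724 and 1498, against 943. DESeq2 gave 1 for CD4 RUX+CSA against CSA and 1 for the difference of effects. With 1 library left out, counts were 0 to 2 for CD8 CSA-containing libraries, 0 to 1 for CD8 RUX+CSA against RUX, 0 to 1 for CD4 RUX+CSA against untreated, 0 to 1 for CD4 CSA against untreated and 1 to 4 for CD4 CSA-containing libraries, and 0 to 0 elsewhere. Counts over all genes moved too: with 1 library left out they were 426 to 1807 for CD8 RUX+CSA against untreated, 0 to 1403 for CD8 CSA-containing libraries, 58 to 293 for CD4 RUX+CSA against untreated and 456 to 1209 for CD4 CSA-containing libraries. Signs turned in CD8 RUX+CSA against untreated with the covariate for Ltb (0.29), Nfkb1 (0.44) and Tnfaip3 (-0.46), in CD8 RUX against untreated for Icam1 (0.0026) and Ltb (0.28), and between cell types for Tnfaip3 in untreated (0.028) and Traf2 in CSA libraries (0.017). With 1 library left out, Tnfaip3 ran from -0.14 to 0.28, Nfkb1 from -0.17 to 0.040 and Rel from -0.045 to 0.22 in CD8 RUX+CSA against untreated, and Relb from -0.044 to 0.18 in CD4 RUX+CSA against untreated. The cause of these changes in counts and signs was not tested. No paired analysis was possible because the labels number the pools 1 to 24 with no number shared between groups. With 3 pools per group, small differences could miss the threshold; depth limited none of the 33 genes.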
